A study of Rattus norvegicus with 84 samples.

Results

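The comparison described here is that of plasma extracellular vesicle (EV) messenger RNA between stroke rats given human neural stem cells (hNSCs) and control stroke rats, 10 days after stroke. It was taken by its labels, which give 3 hNSC and 3 control plasma libraries of long RNA at this day, 6 of the 42 mRNA libraries in the series, and by feature, as the 18782 annotated rat genes of the deposited count table. Of these genes, 14720 had enough counts to be tested. All 6 animals were wild-type adult male Sprague-Dawley rats aged 8 to 12 weeks whose middle cerebral artery was occluded for 90 min. On day 3 after stroke the common carotid artery of each rat received either hNSCs, primary cells from human fetal telencephalon, or saline, so the day 10 plasma was drawn 7 days after the injection. The same 7-group experiment also holds 4 and 31 days after stroke and 3 healthy rats. Reads were counted on rat genes only, and RNA of the human cells was not counted separately here. Whether reads of human RNA lie among the counts of rat genes was not tested.

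EVs are membrane-bound particles that most cells release, and they carry fragments of the RNA of the cell that made them. In blood a large part of them comes from platelets, their megakaryocyte precursors, red cells and leukocytes, with smaller contributions from endothelium and organs such as the liver. Plasma EV mRNA is therefore a mixture in which transcripts of blood cells stand beside rarer transcripts of solid tissues.

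The 6 libraries held 26.4 M to 39.2 M counts (M, mega), of which 48.6% to 75.6% lay on annotated genes. Control rats had more total counts than hNSC rats in every pairing, at 34.4 M to 39.2 M against 26.4 M to 33.5 M (p = 0.1 by a two-sided exact permutation test, and 3 against 3 cannot give less). Pairwise Pearson correlations of log2 expression among the 6 libraries ran from 0.662 to 0.745, so no library repeated another. Hemoglobin transcripts took 12.7% to 28.6% of the annotated counts. The gene for the neuronal synaptic protein SNAP-25, Snap25, had no counts in the 6 libraries, and neuron genes together made up 0.00637% to 0.025% of annotated counts, so little of the RNA carried the defining markers of neurons.

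No gene differed between hNSC and control plasma EVs at 10 days in edgeR's quasi-likelihood test when both an adjusted p (Benjamini-Hochberg) under 0.05 and a fold change above 1.5 were required: 0 of 14720 genes, or 0%, were called, and the lowest adjusted p was 0.322. At an unadjusted p under 0.05 with the same fold limit, 559 genes were higher in hNSC (3.8% of those tested) and 39 were lower (0.265%). limma on log2(FPKM + 1) also called 0 genes. DESeq2 called 1142 genes, 1078 higher (7.69% of the 14013 genes it gave an adjusted p) and 64 lower (0.457%). Of its 1078 higher genes, 1055 had no counts in any control library, and of its 64 lower genes, 62 had none in any hNSC library, whereas 13 of the higher and 2 of the lower genes had counts in all 6 libraries. The 3 libraries per group set the precision: the median standard error of the log2 fold change was 0.44 for the 1623 genes over 100 CPM, 1.16 for the 7095 genes between 10 and 100 CPM, and 3.38 for the 6002 genes under 10 CPM. CPM is a gene's count scaled to a common library total, with library totals adjusted by the trimmed mean of M values (TMM).

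The hNSC libraries contained more kinds of transcript. Annotated genes with at least 1 count numbered 10703, 10277 and 9689 in control rats 1, 2 and 3, and 11411, 12627 and 15269 in hNSC rats 1, 2 and 3. Each hNSC library lay above each control library, and hNSC rat 3, which had the fewest total counts of the 6, had the most genes (10223 ± 509 in control against 13102 ± 1972 in hNSC, SD, n = 3 each, two-sided exact permutation p = 0.1). Among the tested genes 730 had counts in hNSC rat 3 and in none of the other 5, against 28 to 125 for each other library. The detected genes were well above single reads, with a median of 212 to 636 counts per detected gene and 95.9% to 99.0% of detected genes at 10 counts or more. Healthy rats, which share no library with either group, had 12708, 13661 and 11819 detected genes.

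**Figure D1:**
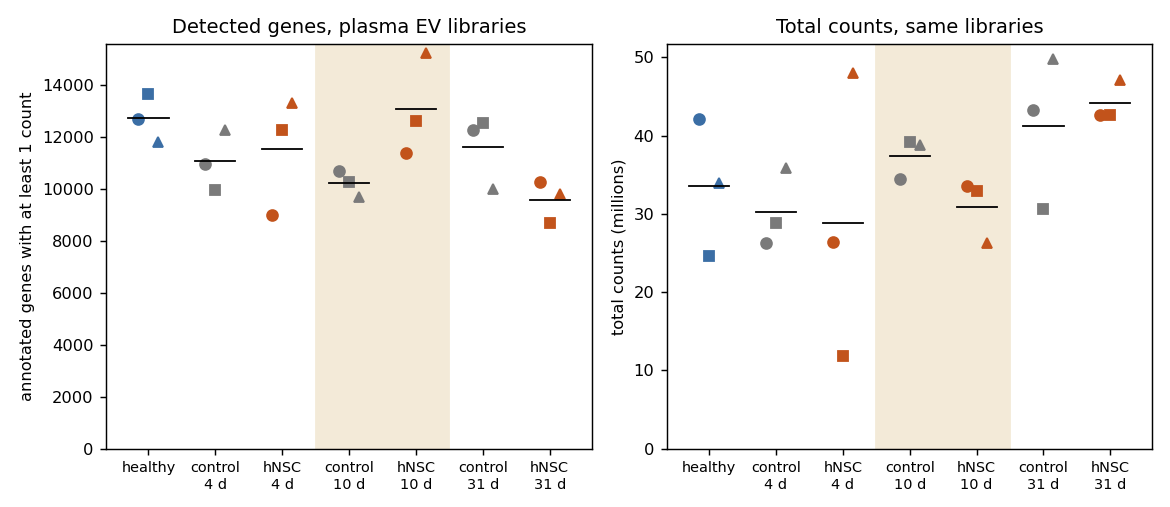
Annotated genes with at least 1 count (left) and total counts of the library (right) in the 21 plasma EV mRNA libraries, by group, with circles, squares and triangles for replicates 1, 2 and 3 and a line at the mean; replicates of different groups are different rats. The shaded groups are those at 10 days, where the 3 hNSC libraries (11411 to 15269 genes) sit above the 3 control libraries (9689 to 10703 genes) while their total counts are lower.

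The direction of the gene-level differences moved with this difference in detected genes. No counts in any control library and counts in every hNSC library were found for 307 genes (2.09% of those tested), and the opposite pattern for 1 gene (0.00679%). Of the 559 genes higher in hNSC at an unadjusted p under 0.05, 507 had no counts in any control library, and 33 had counts in all 6 libraries. The part that the number of detected genes has in these 507 was not tested. Of the 307 genes, 306 had counts in at least 1 of the other 15 plasma libraries and 171 had counts in all 3 healthy rats, so these are transcripts that plasma EV libraries of the series otherwise hold. At 31 days after stroke the pattern was the other way round, with 8 genes on in every hNSC and no control library and 282 the reverse. The 4-day libraries gave 58 and 18.

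**Figure D2:**
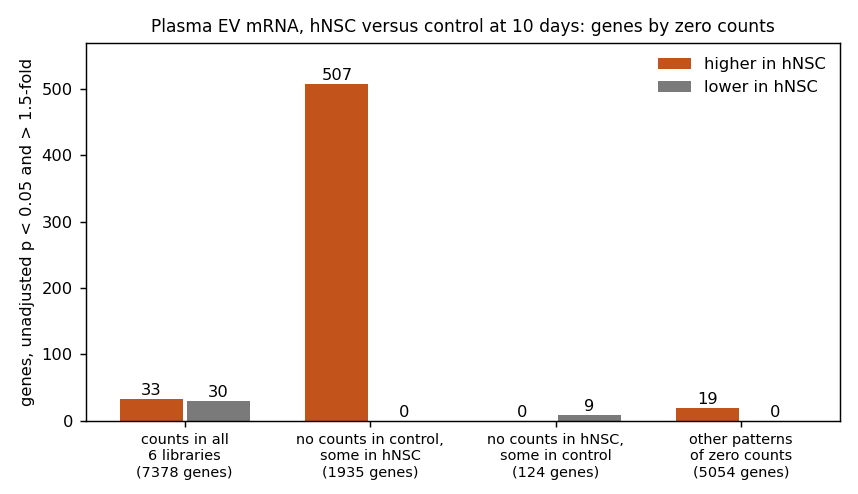
Number of genes at an unadjusted p under 0.05 and over 1.5-fold in edgeR's test (vertical axis), higher or lower in hNSC, by where the gene had zero counts (horizontal axis, with the number of genes of each kind). The genes higher in hNSC are mostly those with no counts in control (507 of 559), whereas genes with counts in all 6 libraries split 33 to 30.

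Zfp282, a zinc finger protein gene named for having the lowest p of all, had 0 CPM in each control rat and 5.53, 18.2 and 3.98 CPM in the hNSC rats. The hNSC libraries all held it and the control libraries all lacked it. Against a floor of 3 counts over the control group, which covers counting error only, it was at least 167-fold higher in hNSC (adjusted p = 0.322 in edgeR). In healthy rats it stood at 2.87, 3.75 and 6.53 CPM.

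The 10 genes of lowest p in this direction that averaged at least 5 CPM were of the same kind, each at 0 in all 3 control libraries. None was called, and the adjusted p of each was 0.834 in edgeR. Cenpj, which encodes a centriole assembly protein, had 21.6, 12.7 and 23.3 CPM in hNSC rats 1 to 3, at least 360-fold above the floor. Tbce, a tubulin folding cofactor, had 28.3, 18.6 and 23.5 CPM, at least 444-fold above that floor, which covers counting error only. Soat1, the acyltransferase that esterifies cholesterol, had 18.5, 18.6 and 1.96 CPM, at least 255-fold above the floor. The 3 hNSC rats were thus near one another for Tbce, while hNSC rat 3 was far below the other two for Soat1. Klhl13, a substrate adaptor of a ubiquitin ligase, had 7.95, 19.8 and 30.7 CPM. Also of this kind were Nop9, a nucleolar RNA-binding protein, Gstm4, a glutathione transferase, Whamm, an actin nucleation factor, Gmeb2 and the sulfotransferase Chst15, with 7.27 to 24.5 CPM across the hNSC rats and bounds of 208-fold to 276-fold. Cenpj and Tbce were present in all 3 healthy rats, at 13.4 to 24.9 CPM and 23.8 to 31.6 CPM. DESeq2 called Zfp282 and each of the other genes named here.

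Among the 7378 genes with counts in all 6 libraries the 2 directions were balanced. At an unadjusted p under 0.05 and over 1.5-fold, 33 were higher in hNSC (0.447%) and 30 were lower (0.407%), and 298 (4.04%) and 308 (4.17%) had groups that did not overlap in that direction. Over all tested genes, non-overlapping groups were found for 913 higher (6.2%) and 350 lower genes (2.38%). The median log2 fold change was -0.01 over the 7378 genes and 0.21 over all 14720.

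6 of the well-covered genes higher in hNSC, chosen after their values were seen, had non-overlapping groups and p-values from 0.00645 to 0.00805, with an adjusted p of 0.834 in edgeR. Vdac1, the voltage-dependent anion channel of the outer mitochondrial membrane, had 14.8, 22.3 and 16.9 CPM in control rats and 53.2, 47.4 and 55.4 CPM in hNSC rats, 2.89-fold higher (log2 fold change 1.53, SE 0.50). Both groups were tight for this gene, and the healthy rats, at 49.1 to 60.4 CPM, lay with the hNSC rats. Trim21, an intracellular antibody receptor and ubiquitin ligase, had 18.3, 35.5 and 12.5 CPM in control and 75.4, 50.7 and 70.7 CPM in hNSC, 2.97-fold higher (SE 0.52 on the log2 scale). Its healthy values were 68.7 to 75.9 CPM, also at the hNSC level. Genes picked in part for low control values tend to lie higher in any other group, so no conclusion is drawn from this match. Usp6nl, a Rab5 GTPase-activating protein, had 24.4, 13.8 and 16.2 CPM against 74.1, 73.2 and 44 CPM, 3.51-fold higher. Cluap1, a ciliary transport protein, was 2.45-fold higher, Map3k3, a MAP kinase kinase kinase, 2.52-fold, and Rnf144b, a ubiquitin ligase, 5.24-fold, the last from control values that ran between 1.7 and 17.8 CPM. DESeq2, run on the same libraries, called all 6 (adjusted p from 0.00514 to 0.033). At 4 days the log2 fold change of these 6 genes lay between -0.28 and 0.49.

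**Figure D3:**
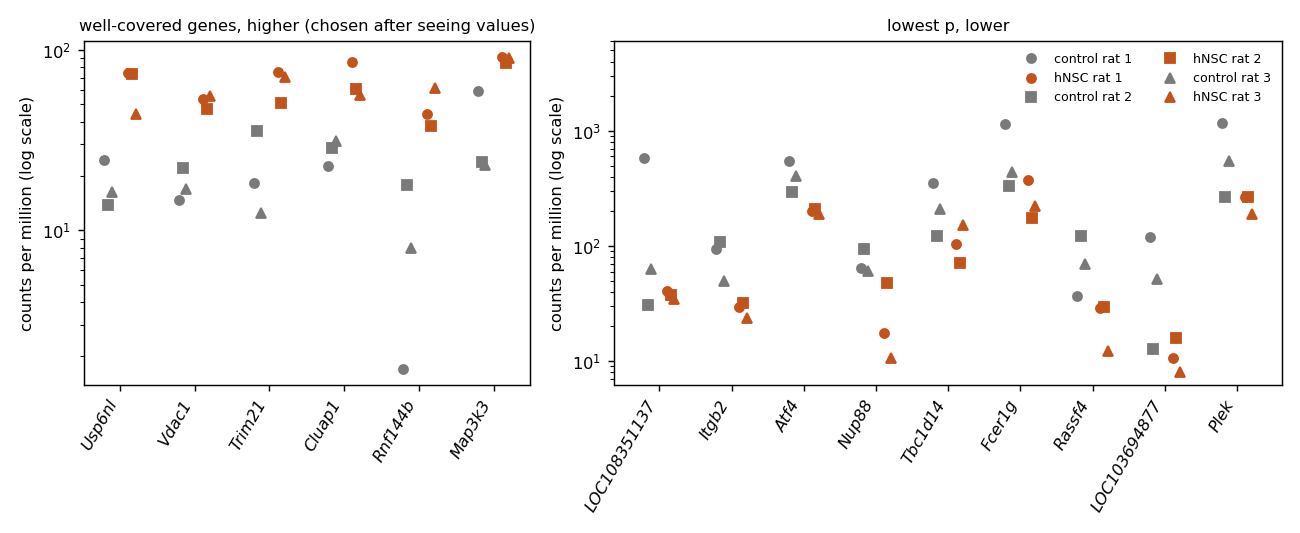
CPM (TMM-scaled, log axis) of 6 well-covered genes higher in hNSC (left) and 9 of the 10 genes of lowest p that were lower in hNSC (right), with control rats in grey, hNSC rats in orange and circles, squares and triangles for rats 1, 2 and 3. The left-hand genes were picked for having no overlap between groups, and the right-hand genes by lowest p. On the right, control rat 1 is the highest library for 6 of the 9 genes.

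The 10 genes of lowest p that were lower in hNSC had counts in all 6 libraries, and each had an adjusted p of 0.834 in edgeR. Itgb2, the beta 2 integrin of leukocytes, had 93.4, 108 and 50 CPM in control rats and 29.3, 31.7 and 23.6 CPM in hNSC rats, 2.97-fold lower in hNSC (log2 fold change -1.57, SE 0.53). Every control rat lay above every hNSC rat. Atf4, the transcription factor of the integrated stress response, had 543, 296 and 402 CPM against 200, 208 and 188 CPM, 2.08-fold lower (SE 0.41), and again the groups did not overlap. Nup88, a nuclear pore protein, was 2.87-fold lower at 64, 93.5 and 61 CPM against 17.5, 48 and 10.6 CPM. In healthy rats Itgb2 stood at 57.3, 111 and 107 CPM, near the control rats. Healthy values were 191, 380 and 188 CPM for Atf4 and 36.7, 29.3 and 41.7 CPM for Nup88. Rassf4, a Ras association protein, was 3.23-fold lower without overlap. Plek, pleckstrin, a protein kinase C substrate abundant in platelets, had 1176, 269 and 545 CPM against 267, 268 and 190 CPM, 2.75-fold lower, and control rat 2 stood barely above the hNSC rats. For Tbc1d14, a regulator of Rab GTPases, and Fcer1g, the Fc receptor gamma chain, 2.08-fold and 2.46-fold lower, the groups overlapped. LOC108351137, with 584 CPM in control rat 1 and 30.7 to 63.6 CPM in the other 5 libraries, and LOC103694877 had their highest value in that rat. DESeq2 called Itgb2 (adjusted p = 0.0454) and LOC108351137 (adjusted p = 0.0127) among these 10. The number of lower genes at an unadjusted p under 0.05 was 39 with all libraries, 14 without hNSC rat 2 and 79 without control rat 2.

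Platelet transcripts were lower in the hNSC group, mainly through 1 control rat. Of 34 platelet and megakaryocyte genes, 3 were higher and 31 lower in hNSC with a median log2 fold change of -1.31, beside 59.9% higher and a median of 0.21 over all genes tested. None was called, and 2, Plek and Treml1, passed an unadjusted p of 0.05. The list took 3.68%, 0.585% and 1.31% of annotated counts in control rats 1, 2 and 3 and 0.841%, 0.467% and 0.888% in hNSC rats 1, 2 and 3. Control rats 1 and 3 lay above every hNSC rat and control rat 2 lay within the hNSC range (1.86% ± 1.62 against 0.732% ± 0.231, SD, n = 3, exact permutation p = 0.3). Control rat 1 was the highest of the 6 libraries for 29 of the 34 genes. Without it the median was -0.30 and 10 of 34 genes were higher in hNSC, beside a median of 0.29 over all genes tested in that fit. In a mixture such as plasma EVs, fewer vesicles from a cell type and less RNA per vesicle cannot be told apart.

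Treml1, a receptor of platelet alpha granules, had 652, 79.7 and 339 CPM in control and 78, 73.8 and 108 CPM in hNSC (log2 fold change -2.04, SE 0.96, adjusted p = 0.834 in edgeR). Ptgs1, the platelet cyclooxygenase, had 965, 47.3 and 171 CPM against 74, 109 and 85.9 CPM, so that control rat 2 was the lowest of all 6. Nrgn, neurogranin, which is known from neurons and also from platelets, had 4739, 366 and 1536 CPM against 662, 336 and 638 CPM. Pf4, the platelet chemokine, had 18864, 1394 and 4283 CPM in control and 5053, 1181 and 3543 CPM in hNSC, a log2 fold change of -1.33 that became 0.20 without control rat 1.

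Genes of the actin cytoskeleton, which platelets express at high levels, were also highest in control rat 1, followed by control rat 3. Of 36, 3 were higher and 33 lower in hNSC, with a median log2 fold change of -0.48 and none at an unadjusted p under 0.05 with the fold limit. Their share of annotated counts was 6.33%, 2.86% and 4.36% in control rats 1, 2 and 3 and 2.93%, 2.58% and 2.75% in hNSC rats 1, 2 and 3. Control rats 1 and 3 were high and control rat 2 lay within the hNSC range. Myl6, a myosin light chain, had 7956, 1580 and 3550 CPM against 1948, 1872 and 1861 CPM, 2.3-fold lower in hNSC. Actn1, alpha-actinin 1, had 127, 172 and 125 CPM against 70.6, 94.7 and 61.7 CPM, 1.87-fold lower, with no overlap and with control rat 2 the highest. Cap1, a cyclase-associated actin regulator, was 1.65-fold lower, and Zyx, zyxin, a focal adhesion protein, 1.9-fold. Without control rat 1 the median was -0.25, and 6 of the 36 genes were higher, beside a median of 0.29 over all genes tested. EV biogenesis genes (tetraspanins, ESCRT and Rab proteins) had 8 of 21 higher with a median of -0.21, and their summed share was higher in every control rat, at 0.294% ± 0.030 against 0.238% ± 0.013 (SD, n = 3, exact permutation p = 0.1). Rab11a was at 415, 110 and 206 CPM against 147, 145 and 123 CPM, and Cd9 at 426, 77.4 and 118 CPM against 136, 83.2 and 95.5 CPM, both highest in control rat 1.

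**Figure D4:**
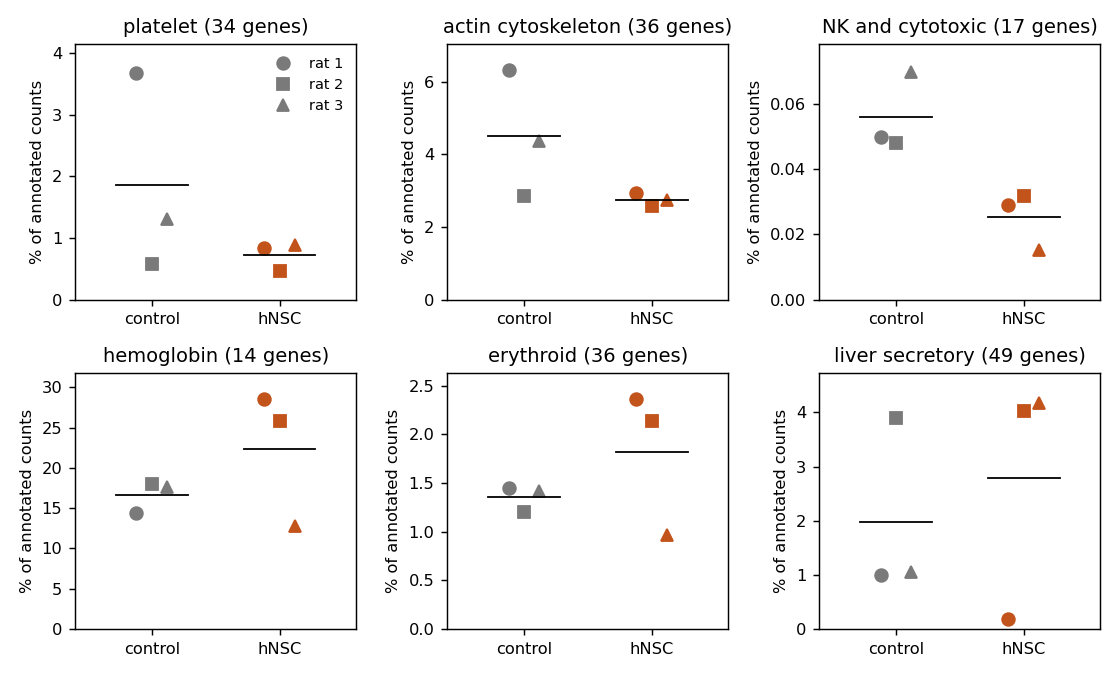
Share of annotated counts (percent, axes from 0) taken by 6 gene lists in each of the 6 libraries at 10 days, with circles, squares and triangles for rats 1, 2 and 3 and a line at the group mean. Control rat 1 stands apart in platelet (3.68%) and actin cytoskeleton genes (6.33%), hNSC rat 1 in liver genes (0.184%), and only the natural killer list separates the groups among these 6.

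Cytotoxic lymphocyte transcripts were lower in every hNSC rat as a summed level, and this did not rest on control rat 1. The 17 natural killer and cytotoxic T cell genes summed to 0.0499%, 0.0479% and 0.0698% of annotated counts in control rats 1, 2 and 3 and to 0.029%, 0.0319% and 0.0154% in hNSC rats 1, 2 and 3. Every hNSC rat was below every control rat (exact permutation p = 0.1, the smallest possible). With equal groups any 1 list would split fully, in either direction, with a probability of 0.1, and 34 lists were set up. The monocyte and macrophage list and the EV biogenesis list, both also lower in hNSC, split in the same way. Of the 17 genes 3 were higher and 14 lower, with a median log2 fold change of -1.34 and 6 with non-overlapping groups in that direction, beside 2.38% of all tested genes. The median was -1.45 without control rat 1, and across the 6 libraries left out in turn it lay between -1.55 and -0.90. Ccl5, a chemokine of T and natural killer cells, had 301, 169 and 316 CPM in control against 175, 212 and 77.2 CPM in hNSC, with overlap. Prf1, perforin, had 15.2, 10.4 and 45.1 CPM against 0, 7.11 and 6.43 CPM, and Gzmk, granzyme K, 18, 14.9 and 42.7 CPM against 0, 0 and 4.89 CPM, neither overlapping. Gzmb, granzyme B, went the other way, from 0 CPM in all 3 control rats to 1.71, 2.83 and 1.12 CPM. No gene of the list passed an unadjusted p of 0.05.

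Of the other leukocyte lists, only the monocyte and macrophage list separated the groups as a summed level. Of 22 T cell genes 12 were higher (median 0.09), of 19 B cell and MHC class II genes 12 (median 0.30), of 27 neutrophil genes 20 (median 0.66) and of 27 monocyte and macrophage genes 14 (median 0.07). Over all genes tested 59.9% were higher. Among members with counts in all 6 libraries, 3 of 10 T cell (median -0.18) and 4 of 8 B cell genes (median 0.05) were higher. The same held for 8 of 11 neutrophil (median 0.19) and 4 of 15 monocyte and macrophage genes (median -0.35), beside 49.2% of all such genes. The summed monocyte and macrophage level was 0.170% to 0.178% in control and 0.106% to 0.165% in hNSC, without overlap (exact permutation p = 0.1). Csf1r, the receptor of macrophage colony-stimulating factor, had 43.5, 71 and 34.1 CPM against 16.7, 22.7 and 32.4 CPM. Mzb1, a chaperone of plasma cells, was at 0 CPM in the control rats and at 5.43, 4.02 and 1.05 CPM in the hNSC rats. Among 16 cytokine genes 8 were higher, and Tgfb1, transforming growth factor beta 1, was at 152, 110 and 123 CPM in control against 67, 88.5 and 25.6 CPM in hNSC, 2.12-fold lower without overlap (adjusted p = 0.834 in edgeR).

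Red cell transcripts were higher in 2 of the 3 hNSC rats and lower in the third than in any control rat. Hemoglobin genes took 14.4%, 18% and 17.6% of annotated counts in control rats 1, 2 and 3 and 28.6%, 25.8% and 12.7% in hNSC rats 1, 2 and 3 (exact permutation p = 0.4). Of the 11 tested, 10 were higher on average, with a median log2 fold change of 0.49. Hba2, an alpha chain, had 68371, 65842 and 71257 CPM in control and 147953, 126883 and 48555 CPM in hNSC, a log2 fold change of 0.65 (SE 0.42, adjusted p = 0.879 in edgeR). Hba1 and Hba2 are near-identical copies, so how their reads were divided is uncertain. Of 36 erythroid genes outside the globins 32 were higher, with a median of 0.63, and for 27 of them hNSC rats 1 and 2 both lay above all control rats while hNSC rat 3 was below all control rats for 22. Without hNSC rat 3 the median was 1.01 and without hNSC rat 1 it was 0.35.

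Xpo7, an exportin of maturing erythroblasts, had 764, 200 and 368 CPM in control and 1333, 860 and 277 CPM in hNSC. Car2, the red cell carbonic anhydrase, had 916, 775 and 932 CPM against 1648, 1903 and 488 CPM, and Prdx2, the peroxiredoxin of red cells, 880, 997 and 949 CPM against 2457, 1638 and 543 CPM, both with hNSC rats 1 and 2 above and hNSC rat 3 below all control rats, like Hba2. Rhag, the Rh-associated glycoprotein, was at 0 CPM in the control rats and at 44.6, 24.6 and 10.3 CPM in the hNSC rats, at least 529-fold above the floor of 3 counts. The difference in red cell genes was therefore not larger than the spread between hNSC rats.

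Liver transcripts differed between rats more than between groups. Of 49 genes of secreted liver proteins and liver enzymes, 47 were higher in hNSC in edgeR's fit with a median log2 fold change of 0.61, and none passed an unadjusted p of 0.05. Their share of annotated counts was 1.00%, 3.89% and 1.05% in control rats 1, 2 and 3 and 0.184%, 4.03% and 4.18% in hNSC rats 1, 2 and 3. hNSC rat 1 was the lowest library for 45 of the 49 genes and hNSC rats 2 and 3 were the highest for 28 and 15. The call of direction depended on the scale, since limma on log2(FPKM + 1) put 29 of 49 higher with a median of 0.10, and on log2(FPKM + 0.1) 23 of 49 with a median of -0.04. Without control rat 2 the median was 1.48 and without hNSC rat 2 it was 0.09. Apoc1, an apolipoprotein of lipoproteins, had 60.7, 131 and 76.1 CPM in control and 25.2, 324 and 901 CPM in hNSC (log2 fold change 2.22, SE 1.17). Apoc3 had 42.2, 46.6 and 16.7 CPM against 9.51, 124 and 194 CPM, and Apoe, made in liver and in glia, 1599, 4373 and 1923 CPM against 424, 5419 and 4704 CPM.

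**Figure D5:**
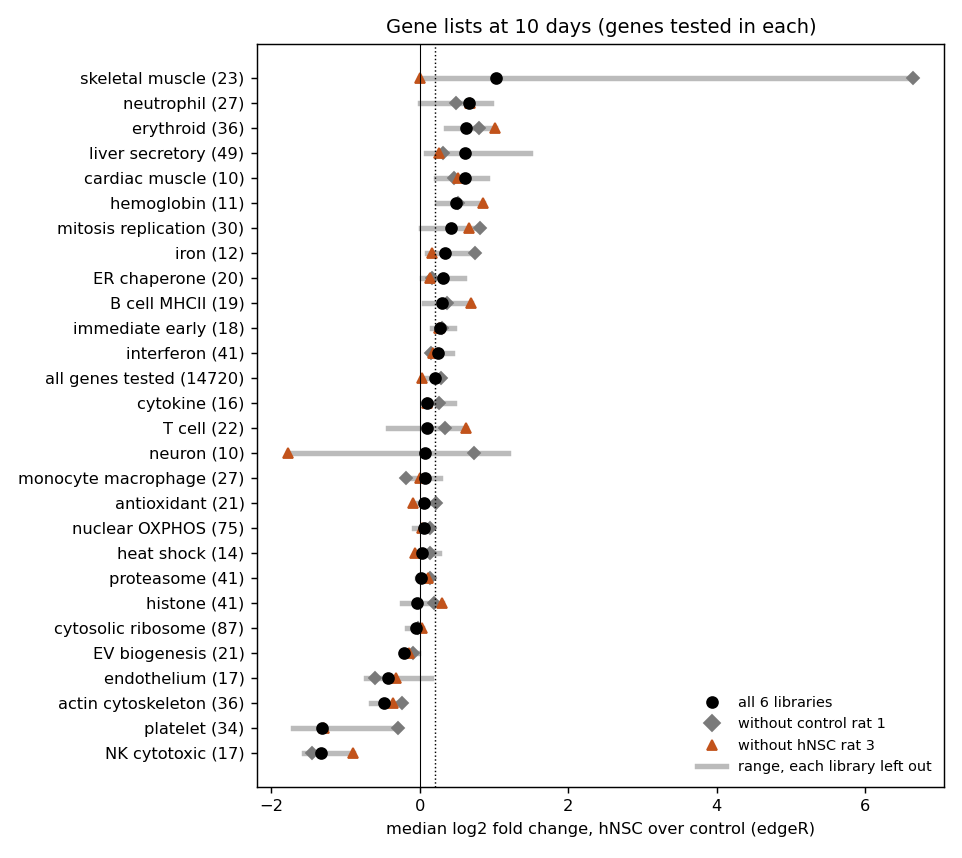
Median log2 fold change of hNSC over control at 10 days (horizontal axis) over the tested genes of each list with at least 10 tested (number in brackets), with all 6 libraries (black), without control rat 1 (grey diamonds), without hNSC rat 3 (orange triangles) and as the range over each library left out (grey bars). The dotted line is the median of all genes tested (0.21). The platelet median goes from -1.31 to -0.30 without control rat 1, where the median of all genes tested is 0.29. The natural killer median stays between -1.55 and -0.90.

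Transcripts of general cell functions were close to even between groups. Cytosolic ribosomal proteins had a median log2 fold change of -0.05 (36 of 87 higher), nuclear-encoded respiratory chain subunits 0.06 (41 of 75), proteasome subunits 0.02 (22 of 41), histones -0.04 (20 of 41), heat shock proteins 0.03 (8 of 14) and antioxidant enzymes 0.06 (12 of 21). Within the respiratory chain, Ndufb8 was 1.96-fold lower in hNSC at 112, 57.5 and 91.6 CPM against 63.1, 26.4 and 43.5 CPM with overlap, whereas Ndufa3, another complex I subunit, was at 0 CPM in the control rats and 3.02, 6.98 and 4.4 CPM in the hNSC rats. Psme2, a subunit of the interferon-inducible proteasome activator, had 61.3, 51.5 and 59.8 CPM in control and 76.9, 146 and 119 CPM in hNSC, 1.98-fold higher without overlap (adjusted p = 0.834 in edgeR). Of 41 interferon-response genes 30 were higher (73.2%, median 0.24), beside 59.9% and 0.21 over all genes tested. Of the 35 with counts in all 6 libraries 25 were higher (71.4%, median 0.24), beside 49.2% and -0.01 over all such genes. No gene of this list was called. Ifih1, the cytosolic RNA sensor, was 1.94-fold higher with overlap, and Gbp5, an interferon-induced GTPase, had 32.5, 53.6 and 64.5 CPM against 73.1, 83.7 and 89.5 CPM without overlap.

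Endoplasmic reticulum chaperone genes had 16 of 20 higher (median 0.32), with Atf4, described above, as the member of lowest p and lower in hNSC. Of 18 immediate-early genes 9 were higher (median 0.27). Egr1, an inducible transcription factor, was at 0 CPM in all control rats and at 10.4, 17.7 and 26.5 CPM in hNSC rats, at least 321-fold above the floor of 3 counts (adjusted p = 0.834 in edgeR), and it was at 2.35 to 19.2 CPM in healthy rats. Dusp1, a phosphatase of the same early response, was 2.15-fold higher with overlap. Of 12 genes of iron handling 7 were higher (median 0.34), although their summed share was 2.98%, 0.899% and 1.49% in control and 0.740% to 1.19% in hNSC. That sum is mostly the ferritin heavy chain gene Fth1, at 33156, 6093 and 12184 CPM in control and 8236, 5535 and 8538 CPM in hNSC, again with control rat 1 the highest. Of 30 mitosis and DNA replication genes 22 were higher (median 0.42), beside 59.9% over all genes tested. Of the 14 with counts in all 6 libraries 10 were higher (median 0.15), beside 49.2% of all such genes. Tpx2, a spindle assembly factor, had 25.6, 34.3 and 19 CPM against 113, 83.1 and 39 CPM, 2.98-fold higher without overlap (SE 0.71 on the log2 scale). The proliferation marker Mki67 had 187, 49.6 and 83.4 CPM against 249, 428 and 62.1 CPM, with overlap.

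Transcripts of solid tissues were sparse. Of 17 endothelial genes 2 were higher (median -0.43), a median that became 0.16 without control rat 2, the highest library for 13 of them. Emcn, endomucin, had 48.4, 101 and 86 CPM in control against 22.2, 39.6 and 7.13 CPM in hNSC, without overlap. Of 10 cardiac genes 9 were higher (median 0.60), with non-overlapping groups for 3 that were higher and 1 that was lower, beside 6.2% and 2.38% of all tested genes. The 3 included Actc1, cardiac actin, at 24.4, 48.6 and 40 CPM against 87.4, 72 and 62.5 CPM and Ryr2, the cardiac calcium release channel, at 0, 13.2 and 2.04 CPM against 18.6, 23.1 and 28.7 CPM. Of 23 skeletal muscle genes 18 were higher, with a median of 1.03 that was 6.65 without control rat 1 and 0 without hNSC rat 3, since most members had zero counts in several libraries. Of 7 epidermal genes 5 were higher and of 4 pancreatic acinar genes 1.

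Among the 26 neuron genes, 5 had no counts in any of the 6 libraries and 10 could be tested, 5 of them higher. Of 9 tested glial genes 5 were higher and of 8 tested neural progenitor genes 3. Tuba1a, an alpha tubulin of young neurons that other cells also express, was lower in hNSC at 168, 310 and 269 CPM against 132, 128 and 155 CPM, 1.8-fold, without overlap (adjusted p = 0.834 in edgeR). Among 20 ion channel and pump genes 9 could be tested and 8 were higher, beside 59.9% over all genes tested. None of the 9 had counts in all 6 libraries. Their median log2 fold change of 2.96 ran from -0.13 to 8.21 under the alternatives, so no direction is read from it. Cacna1a, a neuronal calcium channel, was at 0 CPM in the control rats and 8.96, 1.45 and 8.18 CPM in the hNSC rats. None of these lists held a called gene, and none had over 2 members at an unadjusted p under 0.05 with the fold limit.

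The most abundant transcripts per kilobase were those of red cells and platelets. By the deposited FPKM averaged over the 6 libraries, the order was Hba2 (35488), Hba1 (30859), LOC100134871, whose gene number RefSeq gives as the beta-globin gene Hbbl1 (8107), Hbb (6337), Pf4 (3592), Fth1 (3047), the ribosomal Rplp1 (2204), the actin-sequestering thymosin Tmsb4x (1972), Actb (1888) and the polyubiquitin gene Ubb (1733). Pf4 ranged from 794 to 10321 FPKM between rats, more than the gap to its neighbours in that order. Rplp1 was the steadiest, with 1807, 2053 and 3028 FPKM in control and 2578, 1831 and 1925 FPKM in hNSC. In CPM, Tmsb4x was 1.93-fold and Actb 1.55-fold lower in hNSC, both with overlap.

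The study names 15 genes of plasma and brain EVs, of which Hba1, Hba2, Nrgn, Apoe and Snap25 are given above and none was called. Camk2n1, an inhibitor of a neuronal calcium-dependent kinase, had 12.7, 11.6 and 7.74 CPM in control and 15.3, 31.7 and 45.1 CPM in hNSC, 2.87-fold higher without overlap (SE 1.16 on the log2 scale). Mbp, the myelin basic protein gene, which blood cells also express, had 28, 1.4 and 11.6 CPM against 51.7, 31.7 and 25.1 CPM, with overlap. Jun was at 43.9, 23.3 and 68.7 CPM against 66.1, 87.7 and 115 CPM, and the chaperone Calr at 558, 651 and 477 CPM against 617, 1048 and 575 CPM. The oxidative stress genes Park7 and Prdx6 had log2 fold changes of -0.34 (SE 0.39) and 0.06 (SE 0.52). Vim, Map1a, Map1b and S100b had values of 0.20 (SE 0.47), 0.18 (SE 1.72), -0.03 (SE 0.52) and -0.18 (SE 3.31).

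Whether the hNSC effect at 10 days differed from that at 4 or 31 days was tested as an interaction in the same fit. Against 4 days 1 gene of 14720 (0.00679%) passed, Tpx2, with an interaction of 12.36 on the log2 scale (SE 1.42, adjusted p = 0.00119 in edgeR). At 4 days Tpx2 had 12.7, 13.7 and 4.5 CPM in control and 0 CPM in all 3 hNSC rats, so the size of this value depends on how zeros are handled. Against 31 days 0 genes (0%) passed. At an unadjusted p under 0.05 and over 1.5-fold the interactions gave 838 (5.69%) and 1783 genes (12.1%), and DESeq2 called 1147 and 2023.

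In brain EVs of the same groups at 10 days edgeR called 0 of 14515 genes (0%), with 367 higher (2.53%) and 1568 lower (10.8%) at an unadjusted p under 0.05, the opposite balance to plasma. Of the 14515 genes, 193 had counts in every control and no hNSC brain library, and 1 had the reverse. The part that zero counts have in the brain balance was not tested. The log2 fold changes in brain were -0.82 for Itgb2, -0.45 for Atf4 and -0.27 for Park7, beside a median of -0.39 over genes tested in both tissues. For Itgb2 the brain groups overlapped, at 19.6, 82.5 and 0 CPM in control and 19.2, 38.2 and 0 CPM in hNSC. Of the 6 well-covered genes higher in plasma, Cluap1 was at 0.32 in brain. Usp6nl, Rnf144b, Trim21, Vdac1 and Map3k3 were at -1.26, -1.01, -0.78, -0.51 and -0.26. For Trim21 the brain values were 23.4, 105 and 19.3 CPM in control and 0, 86.1 and 0 CPM in hNSC. The difference between the 2 tissues was not tested. Control rats at 10 days against healthy rats, a comparison that shares the 3 control libraries, gave 0 called genes (0%) and 825 at an unadjusted p under 0.05 (5.6%). In that comparison the platelet median was 0.10 and that of natural killer genes 1.05, both positive where control exceeds healthy. At 4 days the platelet median for hNSC over control was 1.48 and at 31 days 1.34, and that of natural killer genes 0.49 and 1.11. The platelet share at 4 days was 1.28%, 0.983% and 3.87% in hNSC rats 1, 2 and 3. Control rats had 0.418% to 1.19% (exact permutation p = 0.2). At 31 days it was 0.342%, 0.462% and 2.23% in hNSC against 0.384% to 0.590% in control (exact permutation p = 0.9). hNSC rat 3 was thus the highest on both days. The natural killer shares overlapped on both days (exact permutation p = 0.2 and 0.4).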

How the data were processed

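Per the labels and the study's methods, plasma EVs were isolated by size exclusion chromatography (the labels' extraction text says serum), and their RNA was made into stranded total RNA libraries from picogram to nanogram amounts, sequenced in pairs, trimmed, aligned with Bowtie2 to the rat build Rnor_6.0 and assembled with StringTie. The authors deposited 1 table of read counts per gene, not normalized, and 1 of FPKM, for all mRNA libraries. No molecular identifiers are described, so reads are not independent molecules, and intervals and floors cover counting error only. The rats of 1 group are separate animals by their labels.

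Counts were tested with edgeR 4.0.16 (quasi-likelihood, TMM, filterByExpr) in R 4.3.3, over all 21 plasma libraries in 7 groups of 3, on the annotated genes, leaving out 7855 unannotated new genes. Calls required both a fold change above 1.5 and an adjusted p (Benjamini-Hochberg, over all genes tested) under 0.05. The study used limma with the same limits. DESeq2 1.42.0 and limma 3.58.1 were alternatives, with other size factors, filters, sample sets, a replicate block and each library left out. Fold bounds for genes with no counts in a group use 3 counts over that group. Library measures were compared by two-sided exact permutation tests. The edgeR script was tested on simulated data.

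Named genes were the 10 of lowest p in each direction with at least 5 mean CPM, the 10 of highest FPKM, up to 4 members of lowest p per list, and the genes the study names; Zfp282, the 6 well-covered higher genes, Lztr1, Lrch3 and Rab11fip2 were added after their values were seen. A few genes that the rule names are not reported here. Members and lists were chosen with earlier results of these data known. No strand setting of the counting is given in the sources used here, so overlapping genes may share reads.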

Additional observations from a re-analysis of the deposited data

Results flagged for a closer look

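The hNSC effect on Tpx2, a spindle assembly factor, differed between 10 and 4 days after stroke by 12.36 on the log2 scale in a test of the difference itself (edgeR interaction, SE 1.42, adjusted p = 0.00119). Its 3 hNSC libraries at 4 days had no counts, while the 6 libraries at 10 days held 19 to 113 CPM and the 3 control libraries at 4 days 4.5 to 13.7 CPM. The gene passed in the interaction with each of the 6 libraries at 10 days left out, with adjusted p-values from 0.00173 to 0.00943 in edgeR. No library at 4 days was left out, so these fits could not test the zero counts at 4 days on which the difference mostly rests. At 10 days alone Tpx2 was not called. Against 31 days the difference was 0.74 (adjusted p = 1). Groups of 3 libraries are too small for a test of single outlying samples, and none was made.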

How the results depend on the processing

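No gene was called at 10 days by edgeR or limma under any alternative with all 6 libraries, and DESeq2 called 1142. Without control rat 1 edgeR called 2 genes, Lrch3 and Lztr1, so that the count over the libraries left out in turn lay between 0 and 2. The unadjusted limit alone gave 598 genes. For the interaction with 4 days DESeq2 called 1147 genes and the libraries left out in turn gave 1 to 3, and for that with 31 days DESeq2 called 2023 and they gave 0 to 2, Lrch3 and Lztr1 without control rat 1 and Rab11fip2 without control rat 2. A refit on genes with counts in each of the 6 libraries, chosen after seeing the data, gave 52 higher and 37 lower genes at an unadjusted p under 0.05, in place of 559 and 39.

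The replicate numbers did not pair the rats: correlations of same-numbered libraries' deviations were 0.00179, 0.0334 and -0.0484. With the number as a replicate block 0 genes were called, and 417 higher and 32 lower genes had an unadjusted p under 0.05.

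Of 1656 values of 89 genes under the alternatives, 20 values of 7 genes had the opposite sign. The log2 fold change Map1b had was 0.0265 with only the 6 libraries, 0.0344 without hemoglobin genes, 0.0146 with new genes kept, and -0.50 to 0.25 over the libraries left out in turn. The log2 fold change Apoe had was -0.0702 in limma with a pseudocount of 0.1, -0.0675 in the other limma fits and -0.0374 to 0.998 over those libraries. The same ranges were -1.83 to 0.20 for Pf4, -1.38 to 0.10 for Cd9, -0.75 to 0.40 for S100b, -0.19 to 0.26 for Prdx6 and -0.51 to 0.80 for Map1a.

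With 3 rats a group and no molecular identifiers, genes under 10 CPM could not be compared with useful precision, and a zero in these libraries is no sign of absence.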

Other observations

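Leaving out control rat 1 produced 2 calls at 10 days that the full comparison does not have. Lrch3 had 31 CPM in control rat 1, 0 CPM in control rats 2 and 3 and 45.8, 24.8 and 22.4 CPM in hNSC rats 1, 2 and 3. Lztr1, an adaptor of a ubiquitin ligase for Ras proteins, had 28.9, 0 and 0 CPM in control and 18, 20 and 33.2 CPM in hNSC. Both genes were thus at the hNSC level in 1 control rat and without counts in the other 2, and in the full comparison their p-values were 0.267 and 0.369.

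The spread of single genes between rats of 1 group depended on their level. For genes over 100 CPM the median coefficient of variation was 28.0% in control and 28.5% in hNSC, and for genes of 10 to 100 CPM it was 55% and 40.4%. Under 10 CPM it was 173% in control, which is the value a gene has when it is present in 1 of 3 rats, and 101% in hNSC.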
